A study of Mus musculus with 2 samples.

Results

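Matricellular proteins are secreted into the extracellular matrix and act there mainly as signals, by binding integrins, proteoglycans and growth factors, while collagens and elastin carry the load. Fibronectin is the provisional matrix on which many of them assemble. The CCN proteins are a family of small modular secreted factors whose genes were formerly called Cyr61 (Ccn1), Ctgf (Ccn2), Nov (Ccn3), Wisp1 (Ccn4) and Wisp2 (Ccn5). In the artery wall these genes are known for their link to injury, smooth muscle phenotype and plaque matrix. The 10 genes described here (Fn1, Postn, Tnc, Thbs1, Thbs2 and Ccn1 to Ccn5) were taken as a named family out of the 32285 genes of the count matrix.

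The study profiled aortic cells by droplet single-cell RNA sequencing in 1 sample labelled MSC_ITGB3 and 1 labelled HFD. Both came from ApoE-/- mice 20 weeks old, which lack apolipoprotein E and develop plaques, and the series text gives HFD feeding for both and the MSC_ITGB3 treatment for one. Counts were deposited as one matrix holding 2 libraries, told apart by a barcode suffix and called library 1 and library 2. Neither suffix is tied to a sample by the labels, the headers or the barcode names, so no library was given a group and MSC_ITGB3 was not compared with HFD. With 1 library per sample there is no replicate, so no test was made. All intervals are exact 95% intervals that cover counting error only.

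The libraries held 110257209 and 124266676 UMIs (unique molecular identifiers, counted once per captured molecule). Barcodes with at least 3000 UMIs and at most 20% mitochondrial UMIs were kept, which left 6332 and 6540 barcodes with medians of 8746 and 6031 UMIs. They were sorted into classes by marker genes that include none of the 10 members. A class name here means that a barcode passed that marker gate. Paired values are for library 1 and then library 2. The gates took 884 and 1408 contractile smooth muscle barcodes, 292 and 434 modulated smooth muscle barcodes, 1579 and 1313 fibroblast barcodes, 39 and 424 chondrocyte barcodes, and 1001 and 214 endothelial barcodes. No doublet caller was run, and the 233 and 237 barcodes that passed gates of 2 unlike lineages were left out of all classes. A further 1501 and 1985 kept barcodes (23.7% and 30.4%) passed no gate and are in no class either. The libraries shared 17 barcode sequences, and 1 of these was in the same class in both.

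The gates held up unevenly against their own markers. All 12 contractile markers, all 12 endothelial markers, 13 of 14 fibroblast markers and 11 of 13 chondrocyte markers were at least 2-fold above the other 4 classes in both libraries. For the modulated gate this held for only 5 of 12 markers (Lum, Igfbp2, Tnfrsf11b, Vcam1 and Col8a1), and its list shares matrix genes with the fibroblast list. Modulated barcodes also differed in make-up: 76.0% of library 1's and 28.8% of library 2's belonged to 1 cluster led by Igfbp2 and Rgs5, and their median depths were 19056 and 5003.5 UMIs. The chondrocyte class of library 1 rests on 39 barcodes, and its values are given with that limit.

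Free RNA was measured in barcodes of 10 to 100 UMIs, which should hold no cell. From the markers of other cell types, free RNA was estimated at 3.6% and 4.4% of UMIs in contractile barcodes, 3.5% and 11.8% in modulated, 5.1% and 7.1% in fibroblast, 11.1% and 9.2% in chondrocyte, and 5.5% and 4.4% in endothelial barcodes. After it was subtracted, the 8 calls of a member as higher in a class and the 17 calls as lower, all given below, still met the 2-fold rule. Free RNA mixes the classes, so subtracting it tends to widen a fold between them. This check could therefore hardly end a call, and it is little support for them.

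Promoter sequences were found in the RefSeq table (GRCm38.p6) for 4 of the 10 members. All 4 are shown. Each was highest in modulated barcodes, and Ccn1 differed from the other 3 in varying least over the classes. Each line gives the 250 bases before the annotated start, read 5′ to 3′ on the gene's strand, and capitals mark a matched motif. The Postn window is chr3:54360857-54361106 on the plus strand, the Tnc window chr4:64047016-64047265 on the minus strand, the Thbs2 window chr17:14694263-14694512 on the minus strand and the Ccn1 window chr3:145649986-145650235 on the minus strand.
Postn: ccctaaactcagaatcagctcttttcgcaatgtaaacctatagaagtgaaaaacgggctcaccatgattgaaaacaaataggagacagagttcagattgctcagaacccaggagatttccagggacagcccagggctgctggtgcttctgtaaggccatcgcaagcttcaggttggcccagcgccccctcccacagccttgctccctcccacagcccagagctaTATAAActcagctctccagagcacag
Tnc: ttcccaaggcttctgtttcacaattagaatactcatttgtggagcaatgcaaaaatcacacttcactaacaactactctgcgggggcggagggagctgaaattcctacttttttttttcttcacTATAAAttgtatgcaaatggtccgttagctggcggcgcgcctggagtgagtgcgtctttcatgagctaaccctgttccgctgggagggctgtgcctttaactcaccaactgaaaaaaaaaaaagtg
Thbs2: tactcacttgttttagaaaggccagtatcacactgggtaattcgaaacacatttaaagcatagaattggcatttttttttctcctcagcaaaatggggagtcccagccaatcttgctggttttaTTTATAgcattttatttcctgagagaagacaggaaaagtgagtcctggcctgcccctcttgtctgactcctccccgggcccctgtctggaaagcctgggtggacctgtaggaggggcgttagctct
Ccn1: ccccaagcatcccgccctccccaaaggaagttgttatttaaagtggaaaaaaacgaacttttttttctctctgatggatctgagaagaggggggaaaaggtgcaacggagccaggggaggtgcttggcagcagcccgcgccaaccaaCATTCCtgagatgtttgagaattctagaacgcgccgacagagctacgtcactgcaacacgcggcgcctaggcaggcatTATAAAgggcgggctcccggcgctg

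Both strands were searched for CATTCC (the M-CAT element bound by TEAD factors), TGANTCA (AP-1), the CArG box (bound by SRF) and TATAAA, and the matches did not overlap one another. The Ccn1 window held CATTCC and TATAAA, which begin 103 and 25 bases before the start. The Postn window held TATAAA 26 bases before the start. In the Tnc and Thbs2 windows TATAAA began 126 bases before the start, in Thbs2 on the opposite strand. Over all 32851 windows of this length, 12.6% held CATTCC, 6.75% TGANTCA, 1.47% a CArG box and 12.4% TATAAA. A match describes letters in a window and shows no binding.

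The class comparison asks in which cell types of the wall each member takes the largest share of UMIs. This share is not the amount that a class supplies. In library 1, fibroblast barcodes held 78355 Fn1 UMIs and chondrocyte barcodes 4660. All 10 members were highest in the same class in both libraries. The share of all genes for which this holds was not computed, so the count only describes. The modulated smooth muscle class was highest for 7 of them, the chondrocyte class for Fn1 and Ccn4, and the contractile class for Ccn3. Levels are given as CPM (counts scaled to a common total per class), and are compared within a gene only, since the chemistry counts 3′ ends. A member was called higher in a class at 2-fold or more over the summed other 4 classes in both libraries, with at least 20 CPM in that class in each library, and lower at a 2-fold deficit in both libraries.

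**Figure D1:**
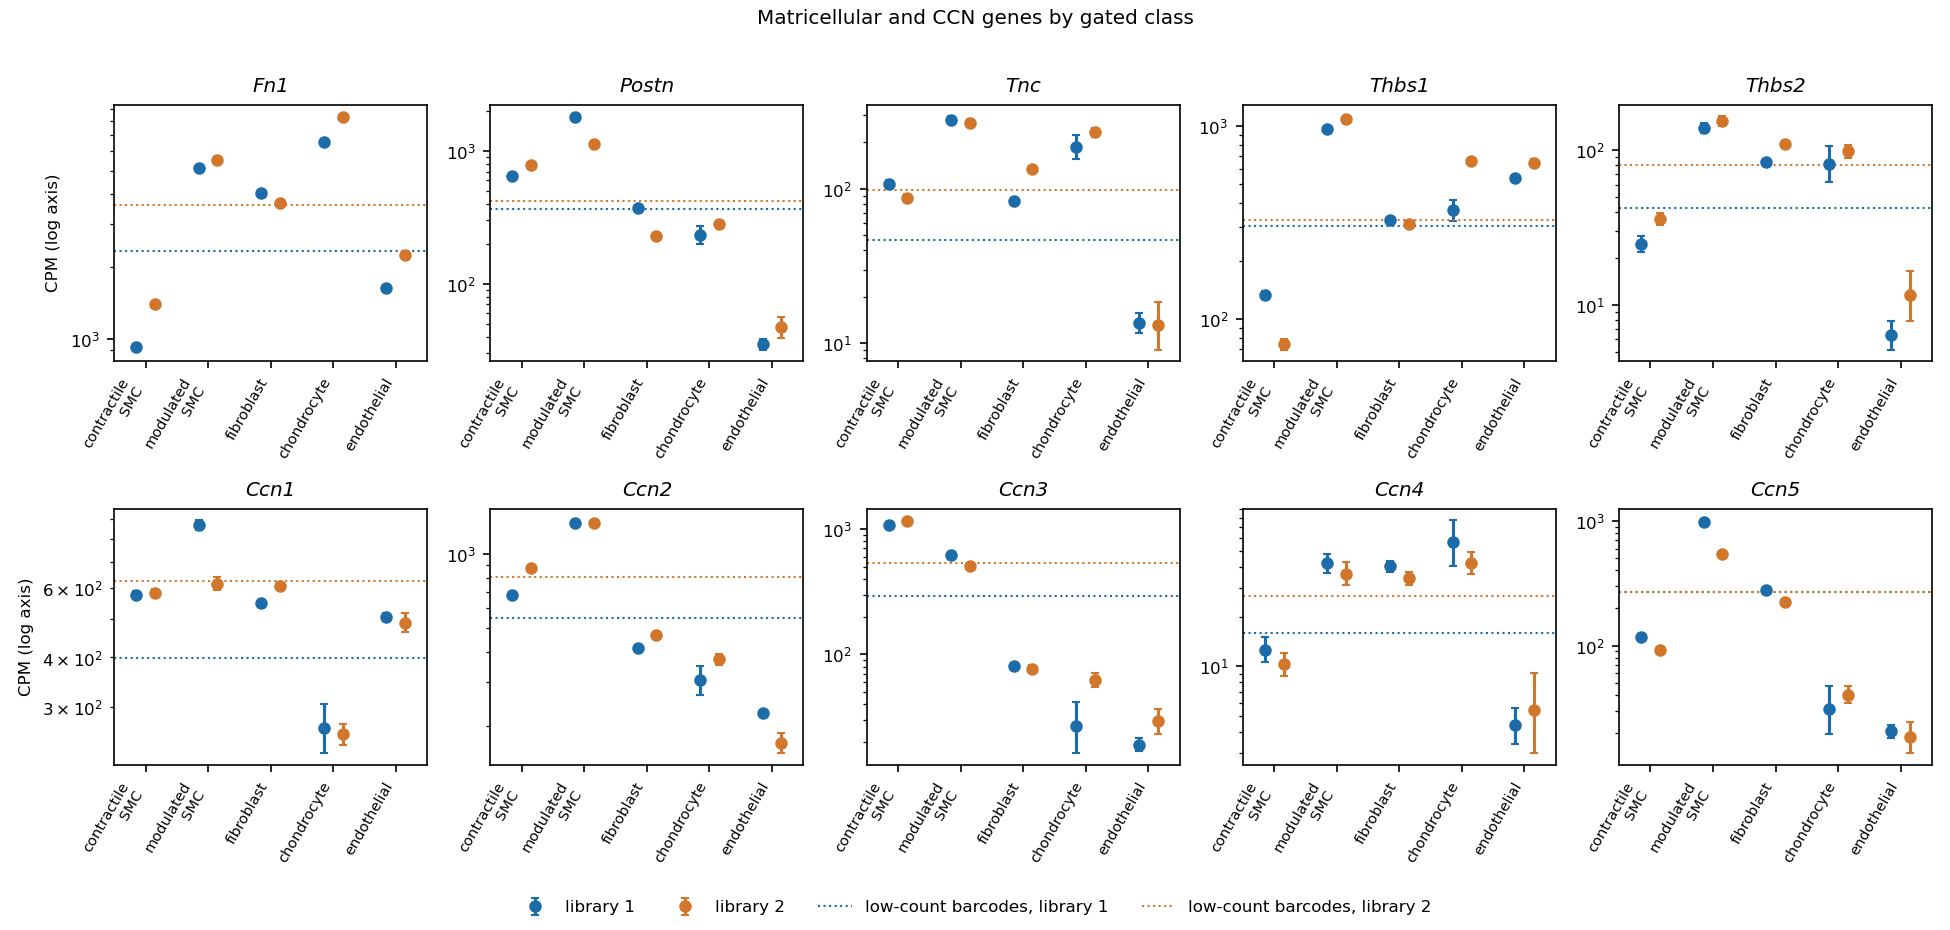
Level of each member (CPM, log axis) in the 5 gated classes, library 1 left of library 2, with exact 95% Poisson intervals. SMC stands for smooth muscle, and dotted lines mark the level in the barcodes of 10 to 100 UMIs that stand for free RNA. Ccn3 stands highest in contractile barcodes, Fn1 in chondrocyte barcodes, and Postn, Tnc, Thbs1, Thbs2, Ccn1, Ccn2 and Ccn5 in modulated barcodes of both libraries.

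In modulated smooth muscle barcodes, 6 of the 10 members were called higher, against 1.18% of 6544 genes by the same rule. None was called lower, against 3.62% of genes. The 6 were Ccn5, Postn, Tnc, Thbs1, Thbs2 and Ccn2. The gate takes barcodes that hold both smooth muscle and matrix transcripts. The calls describe the class in sum and not each cluster. A cluster led by 2210407C18Rik and Coch (36 and 58 barcodes) was also classed as modulated by its summed markers. All 6 members were lower there than in the Igfbp2-led cluster in both libraries. Thbs1 stood at 10.1 and 20.1 CPM, against 906 and 1357 CPM, and Ccn5 at 157 and 159 CPM, against 1008 and 822 CPM. Ccn2 was closer, at 700 and 1296 CPM, against 1271 and 1595 CPM.

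Ccn5 (ENSMUSG00000027656, chromosome 2, 163820861 to 163833146, plus strand of GRCm38) encodes the CCN protein that lacks the C-terminal domain of its relatives. It stood at 984 CPM (958 to 1011) and 541 CPM (520 to 564) in modulated barcodes, against 154 and 131 CPM in the other 4 classes. The folds were 6.39 (6.16 to 6.62) and 4.14 (3.94 to 4.35). Fibroblast barcodes came next at 277 and 224 CPM, then contractile barcodes at 116 and 91.9 CPM, while chondrocyte and endothelial barcodes held 31.1 and 40.5 CPM and 20.7 and 18.6 CPM. As counted, the 5 levels kept this order without overlap between libraries. Low-count barcodes held 271 and 270 CPM, above the contractile, chondrocyte and endothelial levels. With free RNA subtracted, the folds against the other 4 classes were 0.00445 and 0.0911 in chondrocyte and 0.0178 and 0.0389 in endothelial barcodes. The order of the chondrocyte and endothelial classes is thus uncertain.

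Postn (ENSMUSG00000027750, chromosome 3, 54361109 to 54391037, plus strand) encodes periostin, which binds integrins and takes part in collagen assembly. Modulated barcodes held 1788 and 1133 CPM, against 325 and 458 CPM in the other 4 classes, folds of 5.51 (5.37 to 5.65) and 2.47 (2.39 to 2.55). Contractile barcodes followed at 644 and 788 CPM. The fibroblast values of 369 and 230 CPM overlapped the chondrocyte values of 232 and 282 CPM, and endothelial barcodes lay far lower at 35.0 and 47.2 CPM.

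Tnc (ENSMUSG00000028364, chromosome 4, 63959785 to 64047015, minus strand) encodes tenascin-C, a large glycoprotein induced at sites of injury and remodelling. Its modulated level of 280 and 268 CPM set against 68.3 and 117 CPM in the other 4 classes gave folds of 4.10 (3.85 to 4.36) and 2.30 (2.15 to 2.45). Chondrocyte barcodes came next at 187 and 232 CPM. Fibroblast barcodes at 83.4 and 134 CPM overlapped contractile barcodes at 107 and 87.1 CPM, and endothelial barcodes held 13.6 and 13.2 CPM.

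The thrombospondins bind CD47 and integrins, and thrombospondin 1 can also activate latent TGF-beta. Thbs1 (ENSMUSG00000040152, chromosome 2, 118111876 to 118127133, plus strand) stood at 970 and 1094 CPM in modulated barcodes, against 350 and 278 CPM in the other 4 classes, folds of 2.77 (2.69 to 2.86) and 3.94 (3.80 to 4.08). Endothelial barcodes came next at 537 and 643 CPM, which overlapped the chondrocyte values of 365 and 662 CPM. Fibroblast barcodes held 328 and 311 CPM. Contractile barcodes were lowest, at 133 and 73.7 CPM.
Thbs2 (ENSMUSG00000023885, chromosome 17, 14665500 to 14694235, minus strand) had 139 and 154 CPM in modulated barcodes, against 45.5 and 69.8 CPM in the other 4 classes, folds of 3.06 (2.81 to 3.33) and 2.21 (2.02 to 2.40). Fibroblast barcodes at 84.2 and 110 CPM and chondrocyte barcodes at 82.1 and 98.7 CPM overlapped. Contractile barcodes held 24.8 and 36.1 CPM, and endothelial barcodes 6.40 and 11.6 CPM. The paralogs thus shared their highest class but not their lowest.

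Ccn2 (ENSMUSG00000019997, chromosome 10, 24595442 to 24598683, plus strand) encodes connective tissue growth factor, a target of TGF-beta and of YAP. Modulated barcodes held 1339 and 1337 CPM, against 413 and 607 CPM in the other 4 classes, folds of 3.24 (3.15 to 3.33) and 2.20 (2.14 to 2.27). The other classes followed without overlap: contractile at 677 and 878 CPM, fibroblast at 414 and 467 CPM, chondrocyte at 307 and 372 CPM, and endothelial at 224 and 169 CPM. The range from highest to lowest class was 5.98-fold and 7.89-fold. Low-count barcodes held 550 and 803 CPM of Ccn2, above the fibroblast, chondrocyte and endothelial levels of both libraries. Of the 6 calls, those of Tnc and Thbs2 were lost when classes were taken from clusters, that of Thbs2 also with barcodes down to 1000 UMIs, and that of Ccn2 when barcodes were weighted equally.

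In contractile smooth muscle barcodes 1 member was called higher, against 6.89% of 6876 genes, and 5 were called lower, against 11.6%. The higher one was Ccn3 (ENSMUSG00000037362, chromosome 15, 54745702 to 54754039, plus strand), which is expressed in quiescent smooth muscle and restrains its growth in mice. It stood at 1071 CPM (1051 to 1091) and 1158 CPM (1141 to 1176) in contractile barcodes, against 131 and 147 CPM in the other 4 classes. The folds were 8.18 (7.92 to 8.46) and 7.86 (7.58 to 8.15). Modulated barcodes were next at 625 and 506 CPM. Fibroblast barcodes held 80.9 and 76.6 CPM, below the 293 and 537 CPM of low-count barcodes, and chondrocyte barcodes at 26.9 and 62.4 CPM overlapped endothelial barcodes at 19.1 and 29.4 CPM. Ccn3 had the widest spread over the classes of all 10 members, 56.2-fold and 39.4-fold from contractile to endothelial barcodes.
The 5 members called lower in contractile barcodes were Fn1, Thbs1, Thbs2, Ccn4 and Ccn5. Their folds against the other 4 classes lay between 0.272 for Thbs1 and 0.452 for Ccn4 in library 1, and between 0.134 for Thbs1 and 0.402 for Ccn5 in library 2.

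In chondrocyte barcodes 1 member was called higher, against 5.68% of 6723 genes, and 4 were called lower (Postn, Ccn1, Ccn3 and Ccn5), against 10.1%. The higher one was Fn1 (ENSMUSG00000026193, chromosome 1, 71585520 to 71653200, minus strand), at 6595 CPM (6407 to 6787) and 8306 CPM (8218 to 8394), against 2797 and 2847 CPM in the other 4 classes. The folds were 2.36 (2.29 to 2.43) and 2.92 (2.88 to 2.95). The other classes kept 1 order without overlap, with 5123 and 5518 CPM in modulated, 4025 and 3668 CPM in fibroblast, 1634 and 2240 CPM in endothelial and 925 and 1400 CPM in contractile barcodes. Low-count barcodes held 2332 and 3611 CPM of Fn1, above the contractile and endothelial levels of both libraries. The chondrocyte class was mixed. The cluster led by Col11a1 and Hapln1 held 56.4% and 65.1% of its barcodes, with Fn1 at 4553 and 6653 CPM, which overlapped the modulated values. The Penk-led cluster held another 38.5% and 25.9% (15 and 110 barcodes), with Fn1 at 8480 and 12238 CPM, and fibroblast barcodes of that cluster stood at 8615 and 10229 CPM. The chondrocyte call of Fn1 was lost when classes were taken from clusters.
Ccn4 (ENSMUSG00000005124, chromosome 15, 66891320 to 66923201, plus strand), first known as a Wnt1-induced gene, was the sparsest member. Chondrocyte barcodes held 56.6 CPM (40.4 to 77.1) and 42.4 CPM (36.4 to 49.2), from 40 and 174 UMIs. Modulated barcodes at 42.4 and 36.6 CPM overlapped fibroblast barcodes at 40.4 and 34.3 CPM, and the chondrocyte and modulated ranges met. Contractile barcodes held 12.6 and 10.3 CPM and endothelial barcodes 4.38 and 5.42 CPM.

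In fibroblast barcodes no member was called higher, against 6.4% of 6809 genes, and only Ccn3 was called lower, against 6.07%. In endothelial barcodes no member was called higher, against 12.3% of 7201 genes, and 7 were called lower (Postn, Tnc, Thbs2 and Ccn2 to Ccn5), against 10.6%. The endothelial folds of these 7 ran from 0.0424 for Ccn3 to 0.358 for Ccn2 in library 1 and from 0.0523 for Ccn3 to 0.233 for Ccn2 in library 2. Ccn1 (ENSMUSG00000028195, chromosome 3, 145646976 to 145649981, minus strand), which encodes an integrin ligand and is a known YAP target and immediate-early gene, was the most even member. It held 867 and 615 CPM in modulated, 576 and 584 CPM in contractile, 549 and 608 CPM in fibroblast, 507 and 491 CPM in endothelial and 265 and 255 CPM in chondrocyte barcodes. Contractile and fibroblast values overlapped, and the range over classes was 3.28-fold and 2.41-fold.

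A class can hold unlike cells, so the members were also read in clusters, which were built on all barcodes without the 10 members. Fibroblast barcodes were far from uniform for Fn1. The cluster led by Inmt and Hsd11b1 held 41.3% and 48.1% of fibroblast barcodes, and Fn1 stood there at 261 and 258 CPM. In the fibroblast barcodes of the cluster led by Penk and Chil1 it stood at 8615 and 10229 CPM, in those of the cluster led by Opcml and Adgrd1 at 5916 and 3184 CPM, and in those of the cluster led by Saa3 and Chl1 at 2167 and 1987 CPM. The 10% of fibroblast barcodes with the most Fn1 held 64.6% and 71.6% of the class's Fn1 UMIs, the highest such shares among the 5 classes.

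The Penk-led fibroblast barcodes were also high in Thbs1 (1081 and 911 CPM, against 45.9 and 40.8 CPM in the Inmt-led ones) and in Tnc (295 and 443 CPM, against 5.2 and 7.83 CPM). Ccn5 ran the other way in part. It was at 228 and 290 CPM in the Penk-led, 408 and 355 CPM in the Saa3-led and 449 and 224 CPM in the Inmt-led fibroblast barcodes, but at 38.8 and 58.6 CPM in the Opcml-led ones. In the Inmt-led barcodes Ccn1 was at 645 and 626 CPM and Ccn2 at 568 and 579 CPM, above their levels in the whole fibroblast class.

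Contractile clusters differed in Thbs1. In contractile barcodes of the clusters led by Erbb4 and by Sost it stood at 12.9 and 22.1 CPM and at 21.8 and 37.4 CPM, but in those of the cluster led by Timp4 and Slc22a3 at 299 and 292 CPM and in the 45 and 21 contractile barcodes of the Igfbp2-led cluster at 498 and 708 CPM. Tnc was likewise higher in the Timp4-led barcodes, at 319 and 172 CPM, against 57.4 and 88.2 CPM in the Erbb4-led ones. Ccn3 was even over these clusters, at 1027 and 1034 CPM in the Timp4-led, 1229 and 1278 CPM in the Erbb4-led and 1206 and 1186 CPM in the Sost-led barcodes. Over all barcodes of both libraries, the small cluster led by Nrip2 and Pln (78 and 22 barcodes) combined Thbs1 at 399 and 261 CPM with Ccn3 at 53.8 and 29.0 CPM.

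Endothelial clusters differed in the same gene. Over all barcodes of the cluster led by Sprr2b and Igfbp3 (148 and 30 barcodes), Thbs1 stood at 1041 and 1128 CPM, against 417 and 666 CPM in the cluster led by Vwf and Ptprb (727 and 153 barcodes). Tnc was at 76.3 and 77.7 CPM in the Sprr2b-led cluster, against 2.88 and 5.36 CPM in the Vwf-led one. Ccn2 was at 371 and 571 CPM, against 188 and 142 CPM. The shift was not particular to these 3 members. The Sprr2b-led cluster was above the Vwf-led one in both libraries for every member except Thbs2. Ccn1, for example, was at 688 and 1155 CPM, against 478 and 446 CPM.

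**Figure D2:**
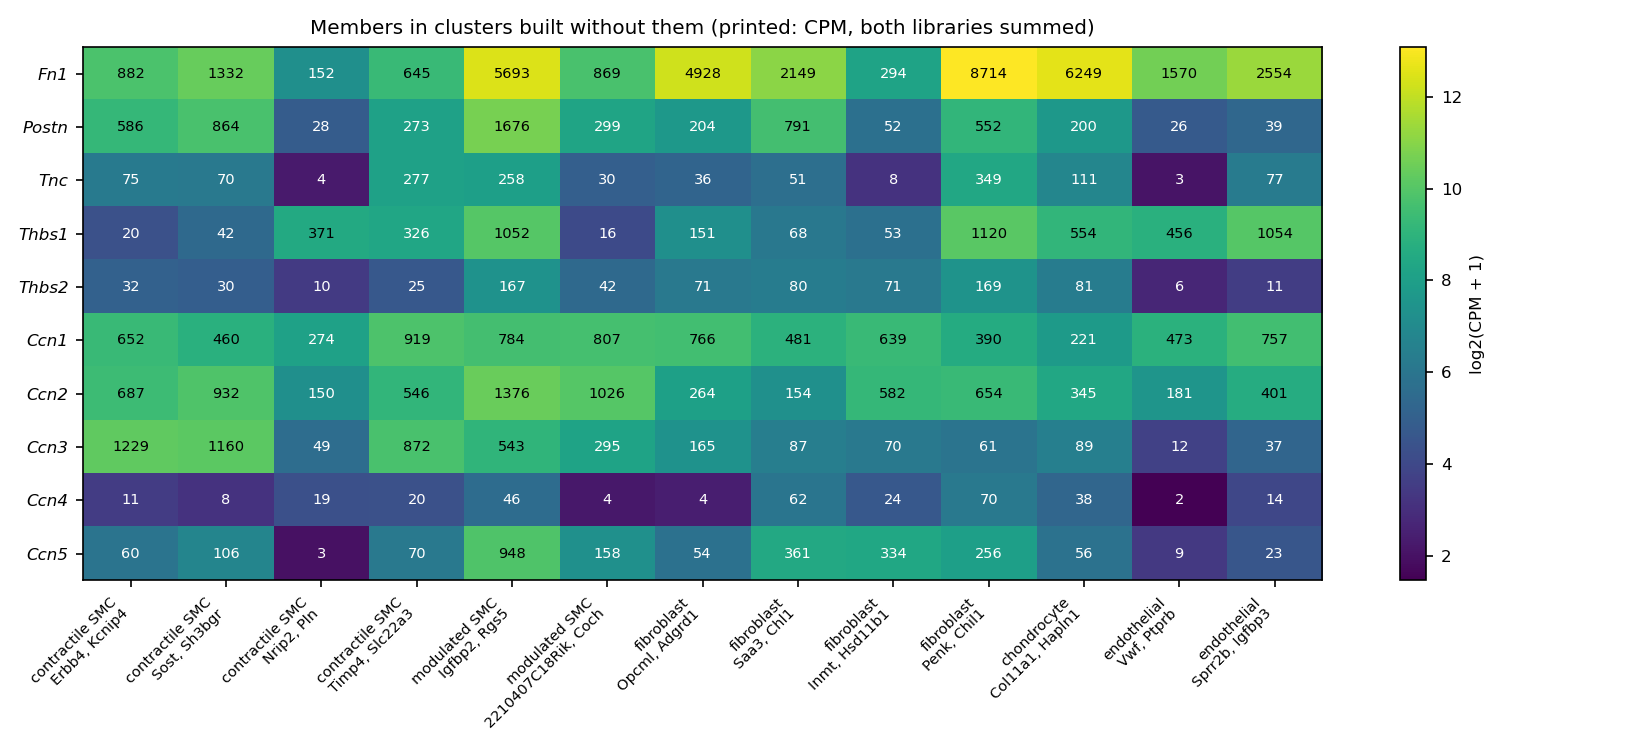
Members (rows) in clusters built without them (columns, named by class and by 2 leading genes), as log2(CPM + 1) in colour and CPM in print, both libraries summed over all barcodes of a cluster. SMC stands for smooth muscle. The class in a column name comes from the summed markers of the cluster. In the Penk-led cluster 316 barcodes passed the fibroblast gate, 125 the chondrocyte gate and 92 the modulated gate. Another 744 passed no gate and 51 passed gates of unlike lineages. Fn1, Thbs1 and Tnc stand high in the Penk-led cluster and low in the Inmt-led one.

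Levels over a class can rest on few barcodes, so detection was read after each barcode was thinned to 3000 UMIs. Barcodes of the T and NK gate (medians of 5092.5 and 4776 UMIs before thinning), which should make little of these proteins, give the background. Among the pairs of the 10 members and 5 classes, 17 had a UMI in at least 50% of barcodes in both libraries. The share of all genes that meet this rule was not computed, so the count only describes. Ccn3 was found in 79.3% and 87.0% of contractile barcodes, against 2.98% and 4.35% of T and NK barcodes. Ccn5 was found in 73.3% and 47.9% of modulated barcodes, against 3.57% and 5.22% of T and NK barcodes, and Postn in 86.0% and 78.3%, against 4.17% and 7.83%.

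Fn1 was found in all 39 and 424 chondrocyte barcodes and in 96.9% and 98.6% of modulated barcodes, but also in 19.6% and 32.2% of T and NK barcodes, the highest background of the 10 members. Thbs1 was found in 67.8% and 65.7% of modulated barcodes and in 42.3% and 43.5% of endothelial ones, against 4.76% and 10.4% of T and NK barcodes. Without thinning, Ccn3 was found in 88.9% and 95.6% of contractile barcodes and Thbs1 in 59.3% and 57.9% of endothelial ones. Ccn4 was found in at most 11.3% and 9.43% of barcodes of any of the 5 classes, in the modulated class of library 1 and the chondrocyte class of library 2.

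**Figure D3:**
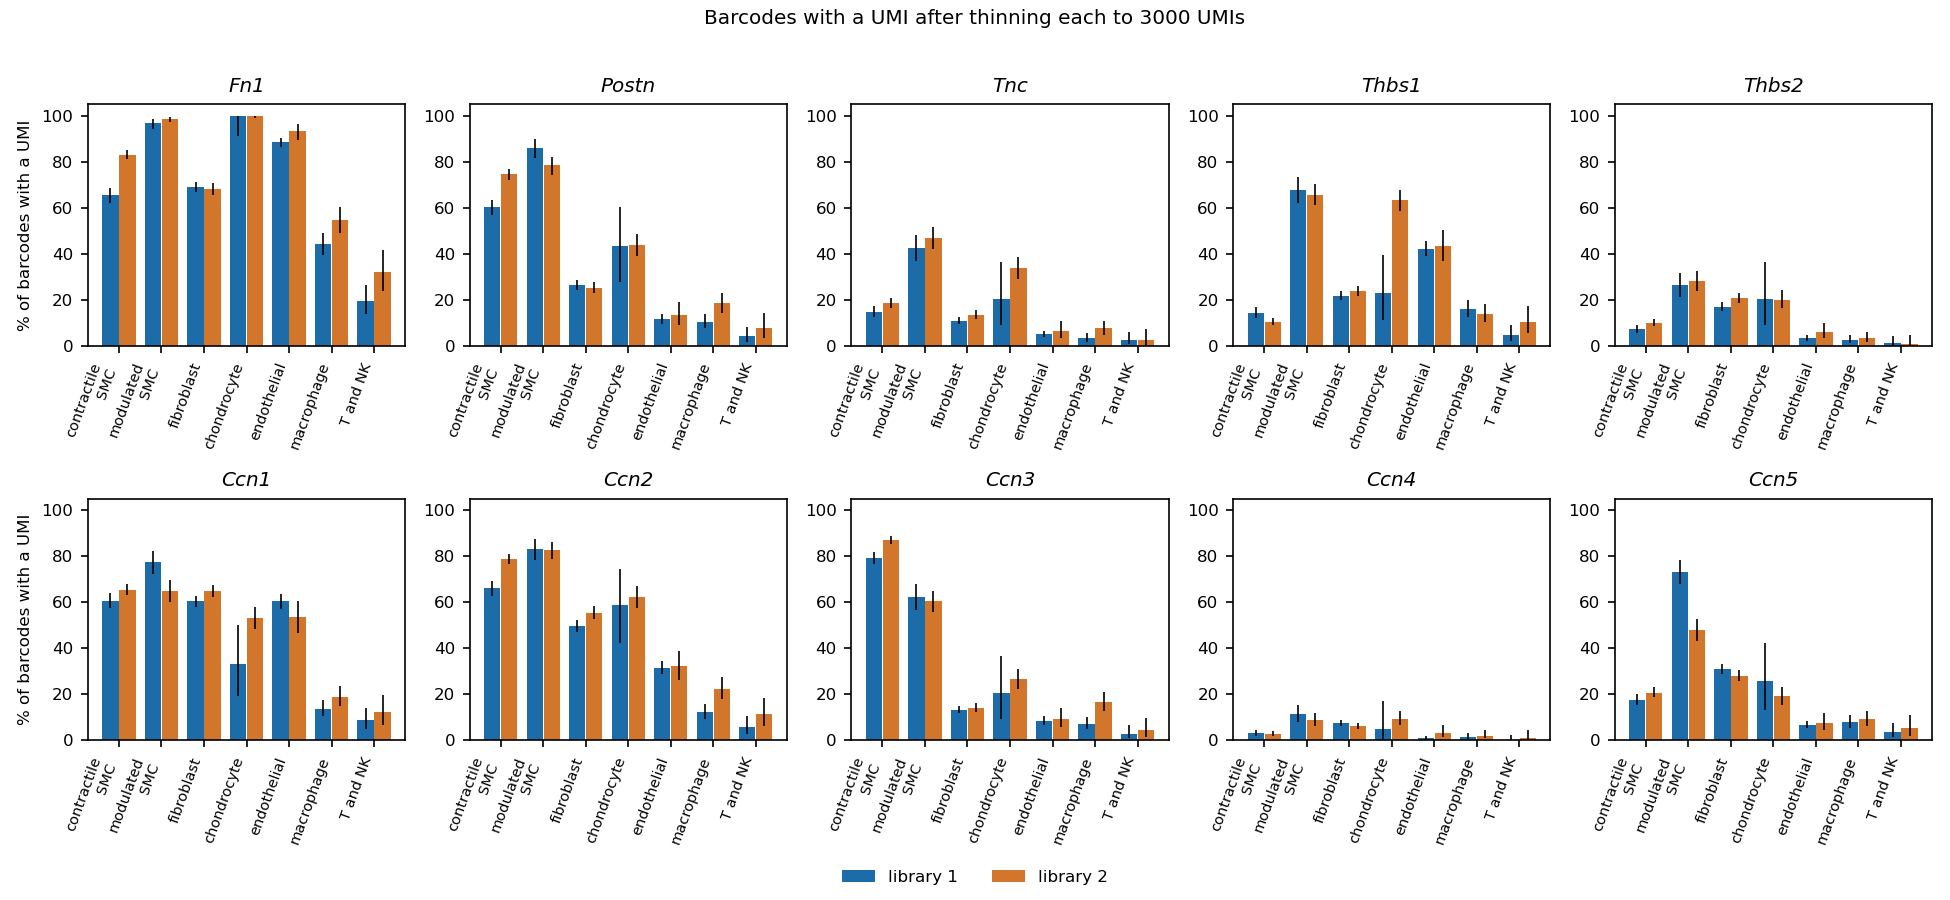
Percent of barcodes with at least 1 UMI of each member after thinning every barcode to 3000 UMIs, by gated class, library 1 left of library 2, with exact binomial 95% intervals. T and NK barcodes give the background, and macrophage barcodes are shown beside them. Fn1 was found in 100% of chondrocyte barcodes of both libraries, and Ccn3 in 79.3% and 87.0% of contractile barcodes.

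The libraries were then set side by side within each class, as a description of these 2 libraries and of no treatment. A member was called at 1.5-fold or more with at least 20 CPM in either library. Of 46 pairs of a member and a class at that level, 9 were called, 4 of them higher in library 1 and 5 higher in library 2. The median log2 ratio of library 1 over library 2 was near 0 over all genes, between −0.06 and −0.02 in the 5 classes.

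In contractile barcodes 1 member was higher in library 1, against 3.41% of 6310 genes, and 1 was higher in library 2, against 1.08%. Thbs1 was at 133 and 73.7 CPM, a ratio of 1.81 (1.67 to 1.96). The ratio over the class was not matched within its clusters, at 0.584 in the Sost-led, 0.582 in the Erbb4-led, 1.02 in the Timp4-led and 0.703 in the Igfbp2-led contractile barcodes. The Timp4-led cluster held 21.0% and 5.68% of contractile barcodes and the Igfbp2-led one 5.09% and 1.49%. The part of this make-up in the ratio was not tested. Fn1 was at 925 and 1400 CPM, a ratio of 0.661 (0.645 to 0.677), and stayed lower in library 1 within the Erbb4-led, Sost-led and Timp4-led clusters, at ratios of 0.524, 0.645 and 0.521. Low-count barcodes also held less Fn1 in library 1, at 2332 and 3611 CPM. With free RNA subtracted, contractile barcodes held 872 and 1297 CPM, and the fold of library 2 over library 1 was 1.49, against 1.51 as counted.

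In modulated barcodes 2 members were higher in library 1, against 2.48% of 6531 genes, and none in library 2, against 6.26%. Ccn5 was at 984 and 541 CPM, a ratio of 1.82 (1.73 to 1.91), and Postn at 1788 and 1133 CPM, a ratio of 1.58 (1.53 to 1.63). Within the Igfbp2-led cluster Ccn5 was at 1114 and 888 CPM, a ratio of 1.25, and Postn at 1965 and 1737 CPM, a ratio of 1.13, both under the threshold. Thbs1, at 970 and 1094 CPM over the class, was at 912 and 1590 CPM within that cluster, a ratio of 0.574. Ccn2 had nearly equal levels over the class, with a ratio of 1.00 (0.968 to 1.04).

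In fibroblast barcodes 1 member was higher in library 1, against 1.55% of 6695 genes, and 1 in library 2, against 1.34%. Postn was at 369 and 230 CPM, a ratio of 1.60 (1.54 to 1.67). The Saa3-led barcodes held 849 and 356 CPM of it and the Inmt-led ones 48.5 and 45.5 CPM. Tnc was at 83.4 and 134 CPM, a ratio of 0.623 (0.582 to 0.667). Its Penk-led barcodes held 295 and 443 CPM, a ratio of 0.665.

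In chondrocyte barcodes no member was higher in library 1, against 10.7% of 6688 genes, and 2 were higher in library 2, against 12.4%. Thbs1 was at 365 and 662 CPM, a ratio of 0.552 (0.484 to 0.627). Ccn3 was at 26.9 and 62.4 CPM, a ratio of 0.431 (0.255 to 0.687), from 19 UMIs in library 1. In the Col11a1-led barcodes alone the direction turned, with 82.1 and 62.0 CPM and a log2 ratio of 0.40, and with a stricter minimum of UMIs per barcode the log2 ratio was −0.24. Endothelial barcodes gave no member higher in library 1, against 1.2% of 7087 genes, and 1 higher in library 2, against 3.39%. It was Ccn3, at 19.1 and 29.4 CPM, which lay below the level of low-count barcodes in both libraries. Its ratio was 0.648 (0.501 to 0.847).

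**Figure D4:**
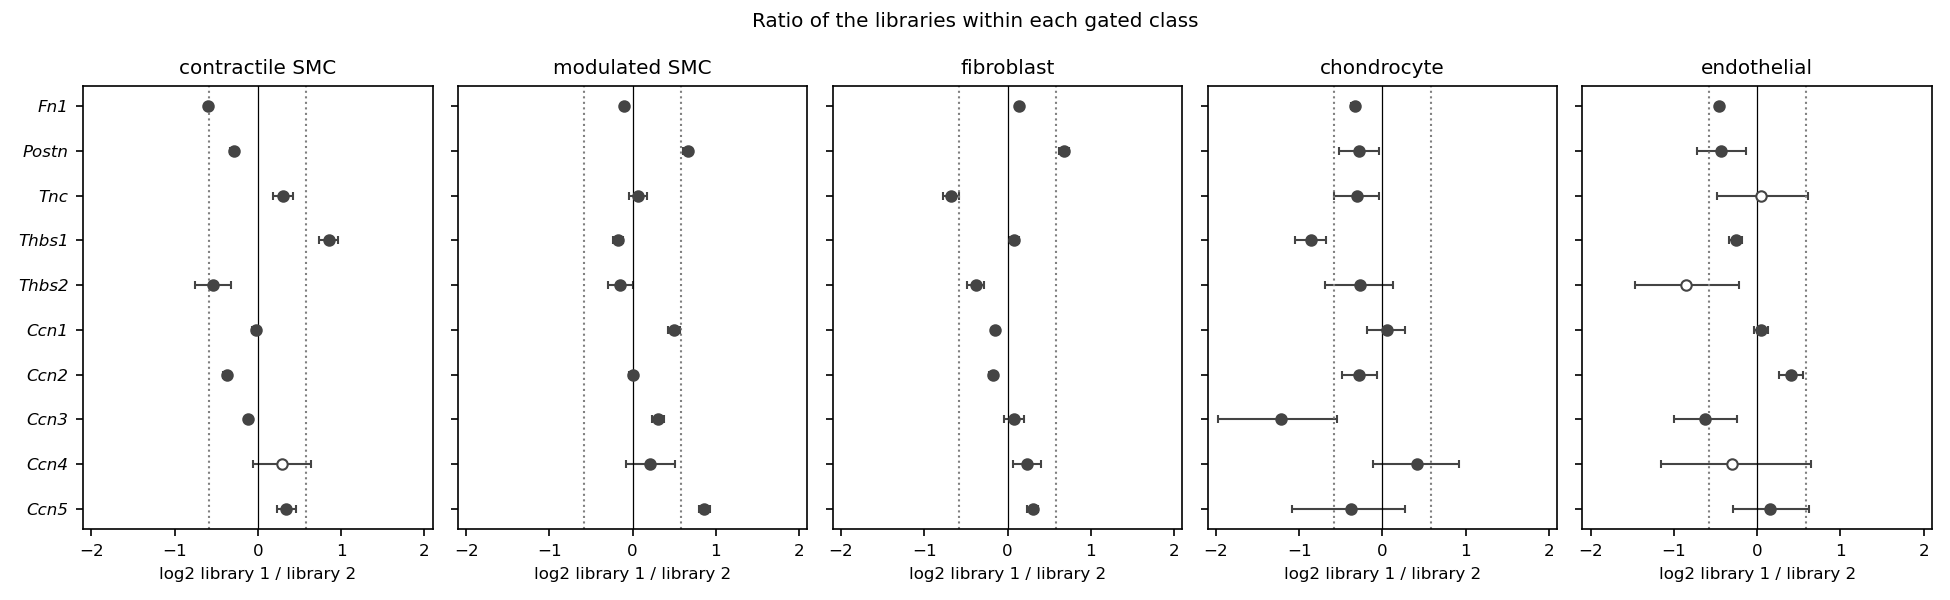
Log2 ratio of library 1 over library 2 for each member in the 5 gated classes, with exact 95% intervals for counting error, where SMC stands for smooth muscle. Dotted lines mark 1.5-fold, and open points are members under 20 CPM in both libraries. Ccn5 in modulated and Thbs1 in contractile barcodes lie farthest to the right, at 0.86 and 0.85, and Ccn3 in chondrocyte barcodes farthest to the left, at −1.21.

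Related genes were read from lists of other matricellular genes, receptors, YAP and TEAD genes and immediate-early genes, with the named ones chosen after their values were seen. Comp and Smoc2, which are gate markers, were set aside from the 16 other matricellular genes. Of the 14 left, 3 were higher in chondrocyte barcodes, against 5.68% of all genes, including Sparc at 28066 and 23868 CPM and Spp1 (osteopontin) at 11769 and 16440 CPM, and 3 were higher in fibroblast barcodes, against 6.4% of all genes, including the tenascin-X gene Tnxb at 448 and 287 CPM and Tgfbi, a relative of Postn, at 384 and 527 CPM. None of the 14 was higher in modulated barcodes, against 1.18% of all genes.

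The receptor list held 19 genes, of which the gate marker Itga8 was set aside. Of the 18 left, 4 were higher in contractile barcodes, against 6.89% of all genes, among them Itgb1 at 1209 and 1143 CPM and Itga9 at 349 and 386 CPM, both integrin subunits. Cald1, an actin-binding protein gene, is among these 4 but is no receptor. Lrp1, a scavenger receptor that binds thrombospondins and Ccn2, was at 851 and 846 CPM in fibroblast barcodes, folds of 5.64 and 3.32 over the other 4 classes. No receptor was called higher in modulated barcodes.

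Of 18 YAP and TEAD genes, 1 was called higher in modulated barcodes, against 1.18% of all genes. It was the muscle ankyrin repeat gene Ankrd1, at 95.4 and 109 CPM with folds of 11.3 and 7.02 over the other 4 classes. In endothelial barcodes 5 of the 18 were higher, against 12.3% of all genes, and 4 were lower, against 10.6%. Among the higher ones were Tead4 at 49.4 and 45.7 CPM and the Yap relative Wwtr1 (TAZ) at 568 and 593 CPM. Of the members known as YAP targets, Ccn2 was called lower there, while Ccn1, at 507 and 491 CPM, was not.

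Ccn1 was set beside 14 immediate-early genes. In contractile barcodes 12 of the 13 that reached 20 CPM were higher in library 1, against 3.41% of all genes, with a list median log2 ratio of 0.94, against −0.02 over all genes. Fos was at 4003 and 2126 CPM and Egr1 at 1240 and 647 CPM, while Ccn1 was at 576 and 584 CPM, a ratio of 0.986 (0.954 to 1.02). In modulated barcodes 7 of 14 were higher in library 1, against 2.48% of all genes, with a median of 0.60, and Ccn1 was at 867 and 615 CPM, a ratio of 1.41. In fibroblast barcodes none of 14 was called in either direction, and the Ccn1 ratio was 0.903.

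The genes most like each member were sought by the Pearson correlation of log2(CPM + 1) over 12 points among 9669 genes. The points were the 6 classes with at least 50 barcodes in each library, which are the contractile, modulated, fibroblast, endothelial, macrophage and T and NK classes. The chondrocyte class, highest for Fn1 and Ccn4, is not among them. Points of 1 class share their gate and points of 1 library their free RNA, so the values only describe. Postn and Tnc were both most like Igfbp7 (0.984 and 0.985) and then Pi15 (0.984 and 0.973). Ccn3 was most like Rcan2 (0.987), Ccn1 like Id3 (0.992), Ccn2 like Sod3 (0.979), Ccn4 like Col3a1 (0.989), Ccn5 like Slc7a2 (0.969), Fn1 like Fkbp11 (0.986), Thbs1 like Vcam1 (0.978) and Thbs2 like Scarf2 (0.978). Vcam1 is also a marker of the modulated gate. Among pairs of members Postn and Tnc were most alike (0.967), followed by Ccn4 and Ccn5 (0.961), and Thbs1 and Ccn3 least (0.311).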

How the data were processed

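The authors deposited a single unfiltered matrix whose values are raw UMI counts, in the Cell Ranger 6.0.1 format per the file headers. Use of bcl2fastq, Seurat and the build mm10 is credited to the submitters' processing notes. The sources used here do not state the annotation, the strand setting or any depth matching between libraries. Fn1, Tnc, Thbs1 and Ccn2 overlap genes on the opposite strand in GENCODE vM21, so their counts are uncertain to that extent.

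Members, lists and gates were chosen with earlier results of these data known. Gates were set on marker values alone. A barcode passed on its marker UMIs per 10000 and its number of markers seen: 60 and 6 (contractile), 120 and 6 (fibroblast), 60 and 4 (chondrocyte), 40 and 5 (endothelial). Contractile barcodes also had to hold under 60 per 10000 from the modulated list, and fibroblast barcodes under 15 per 10000 from the contractile list. Fibroblast barcodes further needed at least 2 fibroblast-only markers, and more of these than of 7 smooth muscle genes. The modulated gate needed 60 and 5, at least 15 per 10000 from the contractile list, and at least 3 of the 7 smooth muscle genes. It also needed fewer fibroblast-only markers than smooth muscle genes, and under 3 per 10000 from fibroblast-only markers. UMIs were summed per class and library and given as CPM. Intervals are exact Poisson, binomial (Clopper-Pearson) or conditional ratio intervals in scipy 1.17.1, and the fold calculation was tested on simulated data. Clusters used scanpy 1.11.5 (2000 variable genes, 30 components, 15 neighbours, Leiden resolution 1.0, no library correction). TMM factors came from edgeR 4.0.16. Named genes are all 10 members, list genes high in CPM or ratio, and the genes most like each member.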

Additional observations from a re-analysis of the deposited data

Results flagged for a closer look

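Thbs1 moved in opposite directions between the libraries in 2 classes. It was at 133 and 73.7 CPM in contractile barcodes of library 1 and library 2, a ratio of 1.81, and at 365 and 662 CPM in chondrocyte barcodes, a ratio of 0.552. The first ratio is 3.27 times the second. The difference between classes was not tested, since there is 1 library per sample. The chondrocyte value of library 1 comes from 39 barcodes. In the largest contractile cluster the ratio was 0.584.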

How the results depend on the processing

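Ccn3 in contractile and Ccn5 in modulated barcodes kept their call in 13 of 13 alternative settings, Postn and Thbs1 in modulated barcodes in 12, Tnc and Ccn2 in modulated and Fn1 in chondrocyte barcodes in 11, and Thbs2 in modulated barcodes in 10. Not all of these settings could end a call between classes. Dropping the level minimum can only add calls, and all called levels lay above the alternative minimum of 50 CPM. Subtracting free RNA could hardly end one either. The tallies between classes thus overstate the support. Calls between libraries held in 7 to 12 of 13. A minimum of 2-fold left 1 of 9 calls between libraries, and a minimum of 3-fold left 2 of 8 between classes. The count of 17 pairs found in at least 50% of barcodes fell to 6 with thinning to 1000 UMIs and to 7 when 2 or more UMIs were required. A setting added after seeing the data took only the largest cluster of each class. It called 12 pairs between libraries, and only 4 of the 9 pairs called above were among them. Of these 4, Thbs1 in contractile barcodes turned direction, to a log2 ratio of −0.78. Lost were Postn and Ccn5 in modulated, Postn and Tnc in fibroblast and Ccn3 in chondrocyte barcodes. The log2 ratio of the last turned to 0.40. Subtracting free RNA took 4 calls between libraries past a limit: Fn1 in contractile and Postn in modulated barcodes went just under 1.5-fold (log2 −0.57 and 0.58, against −0.60 and 0.66 as counted), while Ccn3 went under the minimum of 20 CPM in both libraries, at 0 and 14.3 CPM in chondrocyte and 2.94 and 6.27 CPM in endothelial barcodes. Clusters in place of gates ended the Tnc and Thbs2 calls in modulated and the Fn1 call in chondrocyte barcodes. No paired analysis was possible because each label has 1 sample and no column carries a replicate number. Depth limits Ccn4 everywhere and every member in the 39 chondrocyte barcodes of library 1.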

Other observations

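Lymphatic endothelial barcodes, 19 in library 1 and 7 in library 2, lie outside the 5 classes. Ccn1 stood at 1037 CPM (890 to 1201) and 954 CPM (796 to 1134) there, above its level in any of the 5 classes, from 177 and 128 UMIs. Ccn2, often named beside Ccn1, was at 35.1 and 59.6 CPM from 6 and 8 UMIs. So few barcodes allow no more than these values.

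Over single barcodes thinned to 3000 UMIs, members were weakly tied, and with counts this sparse the values only describe. Fn1 and Thbs1 in endothelial barcodes gave a Spearman rho of 0.40 and 0.41, and Fn1 and Postn in fibroblast barcodes 0.39 and 0.38. Ccn1 and Ccn2 did not exceed 0.19 in any of the 5 classes of either library.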
